A study of Mus musculus with 5 samples.

Results

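Pluripotency of mouse embryonic stem (ES) cells is held by a small network of transcription factors, and 10 of them are described here from RNA sequencing of wild type (WT) and C3G knockout cells. The factors were taken by gene symbol, from general knowledge of ES cells and not by a threshold on their values, as 3 core factors (Pou5f1, Sox2 and Nanog) and 7 naive-state factors (Esrrb, Tfcp2l1, Klf2, Klf4, Klf5, Prdm14 and Tbx3). All 10 passed the filter on low values that left 12518 genes for testing, out of 55147 gene symbols in the table.

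The cells were E14Tg2a, a mouse ES cell line that grows without feeder cells. The WT group had 3 samples and the C3G-KO group, genotype C3G-/-, had 2. Both were grown untreated on gelatin in GMEM with serum and LIF (leukemia inhibitory factor), and total RNA was sequenced. C3G is a guanine nucleotide exchange factor for small GTPases, encoded by Rapgef1. Per the study's methods, the knockout replaced exons 2 to 4 with a puromycin cassette and single colonies were expanded, so a KO sample descends from 1 clone, and the labels used here do not say which clone each sample is. The study calls the samples of each group independent, but the sources used here do not say whether they were separate cultures or clones, so p-values measure the spread between these samples, which may be technical.

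By textbook knowledge, Oct4 (the product of Pou5f1) and Sox2 bind DNA together and keep the ES cell state, and Nanog stabilises it. The naive factors sit around this core. Tfcp2l1 and Klf4 are targets of LIF signaling through STAT3, Tbx3 also responds to LIF, Esrrb lies downstream of Nanog and of GSK3 inhibition, Klf2, Klf4 and Klf5 are related zinc finger factors with overlapping targets, and Prdm14 restrains FGF signaling and DNA methylation. Many naive factors are known to be lost when cells move to the primed, epiblast-like state, in which Pou5f1 and Sox2 are kept.

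Values are TPM, a level per transcript length with a fixed total for each sample, and were summed per gene. Because of the fixed total, a rise of one class of RNA lowers all others. Small non-coding RNAs took 56.1% to 61.9% of the total in WT and 73.2% and 62.3% in the KO samples, and protein-coding genes 28.8% to 31.8% in WT and 18.6% and 26.0% in KO. For this reason values are given both as deposited and scaled by the median-of-ratios method. In it a sample is divided by the median, over genes, of the ratio to the gene's geometric mean across samples. The median was taken over the 12379 tested genes above 0 in every sample. As deposited, the median log2 fold change (KO minus WT) over all 12518 genes was -0.549, and after scaling it was 0.00518. The table holds no read counts, and depth and counting error are therefore unknown. In bulk RNA, fewer cells expressing a factor and less RNA per cell cannot be told apart.

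Rapgef1 was the check of the labels. Its deposited TPM were 11.56, 10.31 and 9.64 in WT and 3.92 and 5.55 in KO, and both KO samples were below every WT sample on both scales. After scaling its log2 fold change was -0.41 (SE 0.059, limma adjusted p = 0.00444), and with each sample corrected for transcript length and GC content it was -0.11 (limma adjusted p = 0.239), no longer past the threshold. TPM were summed over the whole gene, so reads from exons outside the replaced ones count towards this level, and the replaced exons were not measured apart.

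In the WT samples the factors spanned a wide range of levels. By mean deposited TPM, Pou5f1 stood at 376, Sox2 at 80.6, Nanog at 75.4, Klf5 at 53.5, Esrrb at 50.4, Tfcp2l1 at 19.4, Klf2 at 15.3, Klf4 at 15.04, Tbx3 at 7.99 and Prdm14 at 2.34. Sox2 and Nanog overlapped between WT samples, as did Klf5 with Esrrb and Klf2 with both Tfcp2l1 and Klf4. Compared within each sample, Tfcp2l1 was above Klf2 in every WT sample, while the order of the other pairs changed between WT samples. As a check of the labelled cell type, the core factors stood at 43.25 deposited TPM or more in every sample.

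After scaling, 1 of the 10 factors was higher in KO cells by limma with Benjamini-Hochberg adjustment over all genes (Prdm14), 2 were lower (Klf4 and Klf5) and 7 did not pass at an adjusted p of 0.05. Over all tested genes 14.1% were called higher and 16.6% lower, so both member counts were close to the background. With TPM as deposited, 0 factors were higher and 3 were lower (Klf4, Klf5 and Tbx3), where 1.45% of all genes were called higher and 56.8% lower. Without adjustment, 0 factors were higher and 5 lower at p under 0.05 in TPM as deposited. The median log2 fold change of the 3 core factors was 0.23 with scaling and -0.459 in TPM as deposited. For the 7 naive factors it was 0.117 and -0.544, beside the all-gene medians given above.

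**Figure D1:**
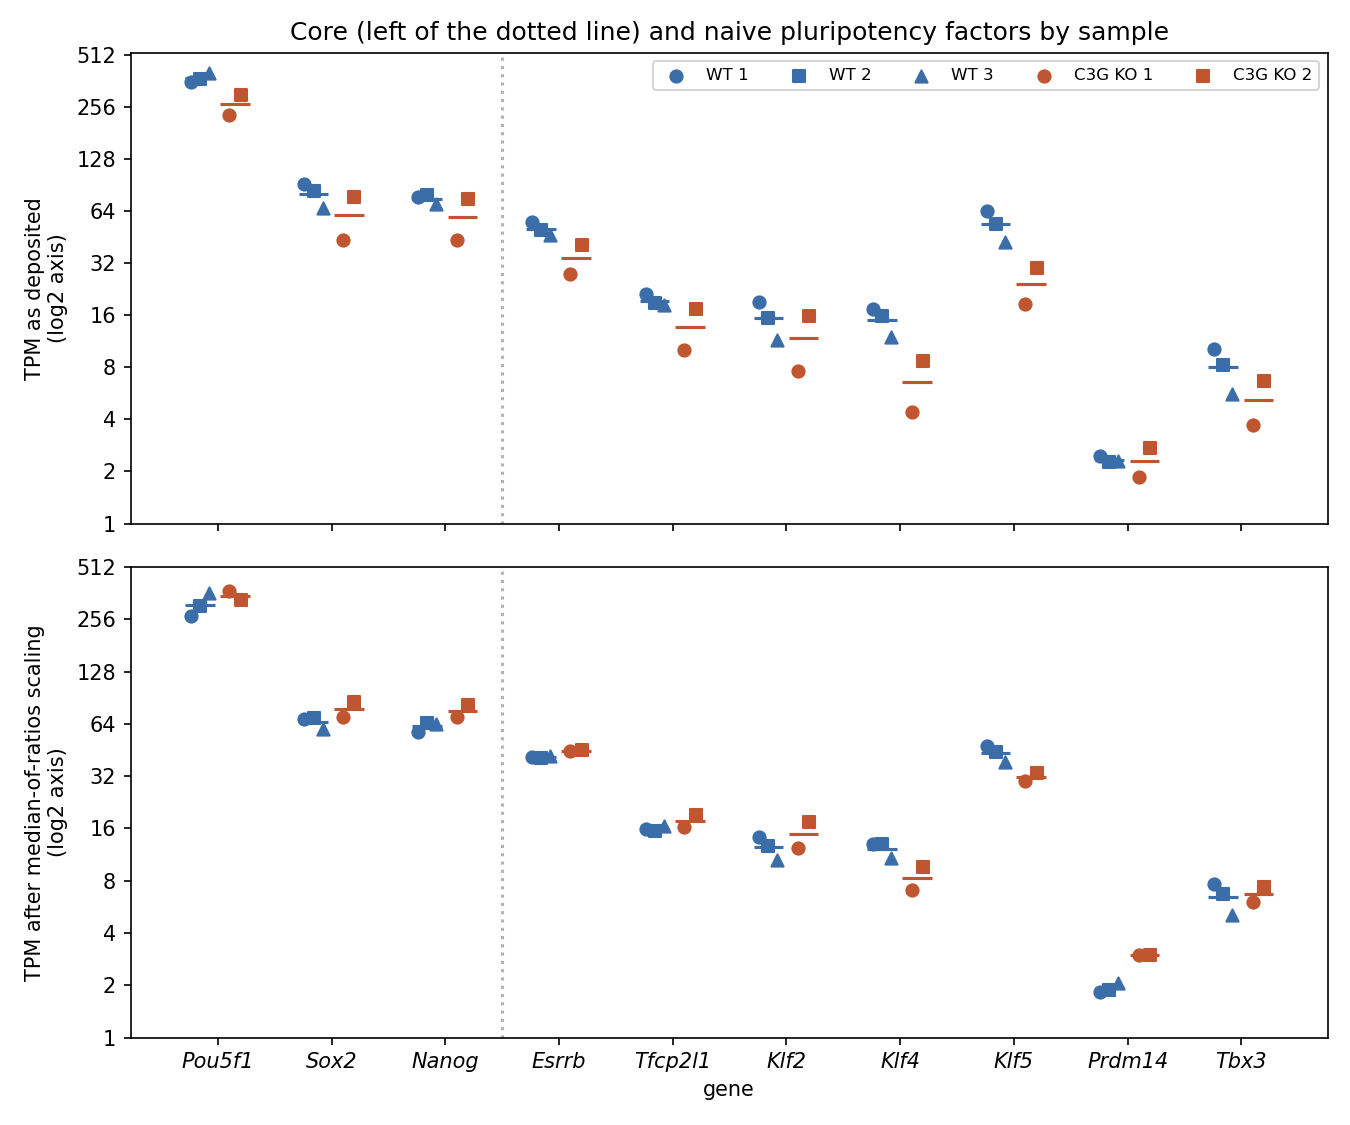
TPM of each factor in each sample, as deposited (top) and scaled by median of ratios (bottom), on log2 axes. Points are samples (blue WT, orange C3G KO) and horizontal lines are group means; after scaling both KO samples lie below every WT sample for Klf4 and Klf5 and above every WT sample for Sox2, Nanog, Esrrb and Prdm14.

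Among the core factors, Pou5f1 (chr17:35506018-35510772, GRCm38, plus strand), which encodes Oct4, had scaled TPM of 268, 304 and 362 in WT and 371 and 329 in KO. The groups overlapped, with WT replicate 1 lowest and KO replicate 1 highest. Its log2 fold change was 0.18 (SE 0.15, 95% interval -0.19 to 0.55, limma adjusted p = 0.413). As deposited it was 357.45, 371.28 and 399.76 in WT and 229.58 and 298.49 in KO, with both KO samples below WT and an adjusted p of 0.0869 in limma.

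Sox2, the DNA-binding partner of Oct4 (chr3:34650405-34652461, plus strand), had scaled TPM of 68.4, 68.8 and 60.2 in WT and 69.9 and 85.3 in KO. Both KO samples were above WT, KO replicate 1 by a narrow margin. The log2 fold change was 0.23 (SE 0.11, 95% interval -0.05 to 0.51, limma adjusted p = 0.176). As deposited, Sox2 spanned 66.43 to 91.36 in WT and 43.25 to 77.25 in KO, and the groups overlapped.

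Nanog, a homeodomain factor (chr6:122707489-122714633, plus strand), had scaled TPM of 57.8, 64.4 and 63.9 in WT and 70.3 and 82.5 in KO. Both KO samples were above WT, and the log2 fold change of 0.29 had a 95% interval of 0.05 to 0.54 before adjustment and an adjusted p of 0.0713 in limma. When only protein-coding transcripts were counted, the adjusted p was 0.0275. As deposited, the range was 70.53 to 78.56 in WT and 43.47 to 74.75 in KO.

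Among the naive factors, Klf4 (chr4:55527143-55532466, minus strand), a zinc finger factor, was lower in KO cells on both scales. Its deposited TPM were 17.43, 15.78 and 11.9 in WT and 4.4 and 8.66 in KO. After scaling they were 13.1, 12.9 and 10.8 in WT and 7.11 and 9.56 in KO. No KO sample reached the lowest WT sample, and KO replicate 1 was the lowest of all on both scales. The log2 fold change was -0.51 (SE 0.14, limma adjusted p = 0.0348) after scaling and -1.13 (SE 0.25, limma adjusted p = 7.54e-05) as deposited. The call rested on single libraries: without WT replicate 1, WT replicate 2 or KO replicate 1 the limma adjusted p was 0.0846, 0.0909 and 0.145, with log2 fold changes of -0.47, -0.48 and -0.33. With each sample corrected for a trend over transcript length and GC content it was 0.0855, at -0.35.

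Klf5, another zinc finger factor of the family (chr14:99298691-99315036, plus strand), was also lower in KO cells on both scales. Deposited TPM were 64.07, 53.72 and 42.6 in WT and 18.5 and 30.07 in KO. After scaling they were 48.0, 44.0 and 38.6 in WT and 29.9 and 33.2 in KO, with both KO samples below WT. The log2 fold change was -0.45 (SE 0.11, limma adjusted p = 0.0257) after scaling and -1.13 (SE 0.27, limma adjusted p = 0.000296) as deposited. Without WT replicate 2, KO replicate 1 or KO replicate 2 the limma adjusted p was 0.0768, 0.127 and 0.0622, and the log2 fold changes were -0.45, -0.38 and -0.52.

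Klf5 is the factor of the set on chromosome 14, and genes of that chromosome were lower in KO cells as a whole. Of 441 tested genes there, 250 (56.7%) were called lower and 29 (6.58%) higher, and their median log2 fold change was -0.459, close to the -0.45 of Klf5 itself. On the 8 other chromosomes that hold the factors, 13.3% to 16.5% of genes were lower and medians ran from -0.0127 to 0.0475. Within 2 Mb of Klf5, 6 other genes were tested, 1 was higher and 2 were lower, and the median was -0.172. With chromosome 14 genes other than Klf5 left out of the fit, Klf5 had a log2 fold change of -0.46 and a limma adjusted p of 0.0256. The part of the chromosome in the Klf5 difference was not tested.

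Prdm14, a PR-domain factor (chr1:13113457-13127163, minus strand), was the lowest of the 10 in level and the one called higher after scaling. Scaled TPM were 1.83, 1.87 and 2.07 in WT and 3.006 and 3.002 in KO, so the groups were well separated. The log2 fold change was 0.45 (SE 0.071, limma adjusted p = 0.00603). Leaving out any 1 sample kept the adjusted p between 0.0106 and 0.0342 in limma. As deposited, 2.44, 2.28 and 2.29 in WT stood against 1.86 and 2.72 in KO, the groups overlapped, and the log2 fold change was -0.032 (limma adjusted p = 0.889). Prdm14 was thus called higher after scaling to the other genes and not with the fixed total of TPM, and both measures are relative.

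Klf2 (chr8:72319033-72321656, plus strand), the third Krüppel-like factor of the naive set, was not called in either direction. Its scaled TPM were 14.3, 12.6 and 10.5 in WT and 12.3 and 17.5 in KO. KO replicate 1 lay within the WT range and KO replicate 2 above it, and the log2 fold change was 0.23 (SE 0.18, 95% interval -0.20 to 0.66, limma adjusted p = 0.358).

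The other naive factors did not pass the test after scaling. Esrrb, an orphan nuclear receptor (chr12:86361117-86521628, plus strand), had scaled TPM of 41.4, 40.7 and 41.8 in WT and 44.6 and 45.1 in KO, with the smallest SD relative to the mean of the 10 factors in WT. Both KO samples were above WT, but the log2 fold change of 0.12 (SE 0.064, 95% interval -0.04 to 0.27) gave a limma adjusted p of 0.211. Tfcp2l1, a grainyhead-type factor (chr1:118627945-118685168, plus strand), had scaled TPM of 15.9, 15.4 and 16.5 in WT and 16.3 and 19.1 in KO. Its groups overlapped, at 0.14 (SE 0.083, 95% interval -0.06 to 0.34, limma adjusted p = 0.244). With the length and GC correction, Esrrb had a log2 fold change of 0.34 (limma adjusted p = 0.00909) and Tfcp2l1 of 0.35 (limma adjusted p = 0.024), both then past the threshold.

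Tbx3, a T-box factor (chr5:119670669-119684724, plus strand), had the largest SD relative to its mean in WT. Scaled TPM were 7.64, 6.71 and 5.06 in WT and 6.03 and 7.37 in KO, and the groups overlapped. The log2 fold change was 0.05 (SE 0.16, 95% interval -0.34 to 0.45, limma adjusted p = 0.83). As deposited it was 10.2, 8.19 and 5.59 in WT and 3.73 and 6.68 in KO. It passed there, at -0.54 with a limma adjusted p of 0.0443, near the all-gene median of -0.549, and without limma's variance trend the adjusted p was 0.0897.

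**Figure D2:**
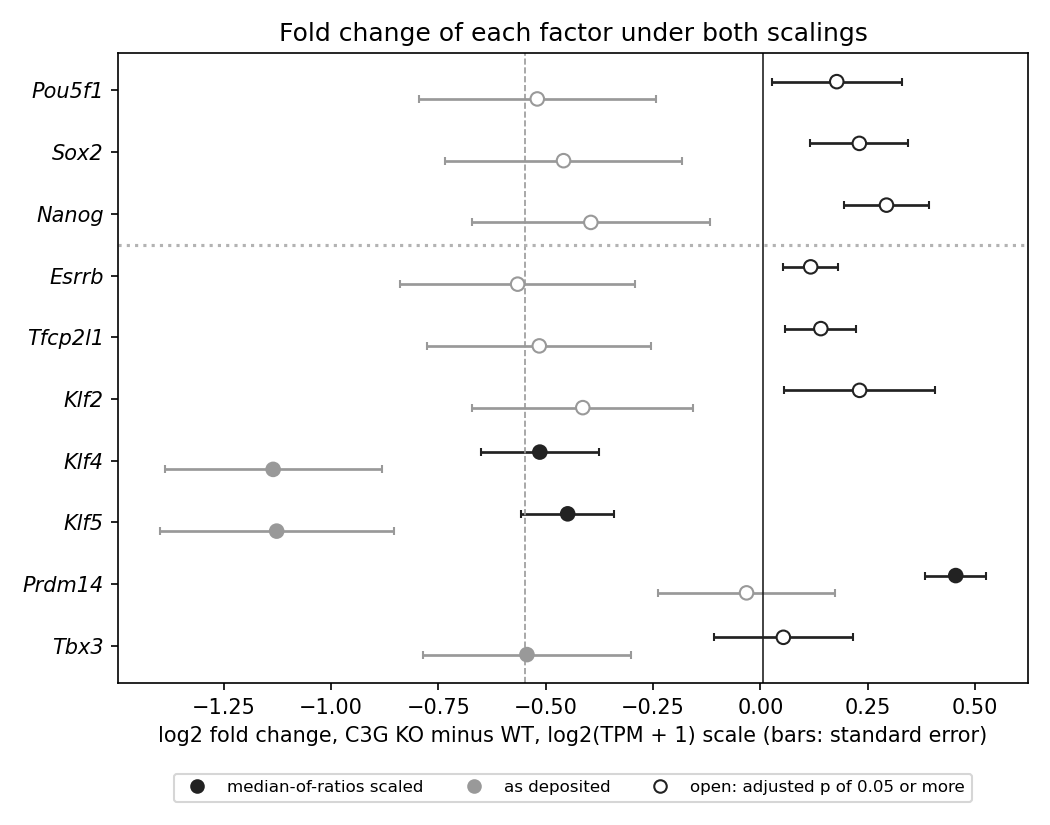
Log2 fold change of each factor, C3G KO minus WT, on the log2(TPM + 1) scale, after scaling (black) and as deposited (grey); horizontal bars are standard errors and filled points have an adjusted p under 0.05. Vertical lines mark the all-gene medians, 0.00518 after scaling (solid) and -0.549 as deposited (dashed); Klf4 and Klf5 lie left of the median on both scales.

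A ratio between genes of the same sample does not depend on the scaling, so each factor was also set against Pou5f1. Klf4 stood at 4.88%, 4.25% and 2.98% of Pou5f1 TPM in WT and at 1.92% and 2.90% in KO. Both KO samples were below WT, KO replicate 2 by a narrow margin, and the mean log2 ratio differed by -0.74. Klf5 stood at 17.9%, 14.5% and 10.7% in WT and 8.06% and 10.1% in KO, again with no overlap and a difference of -0.64. Over WT and KO samples together, the Klf4 and Klf5 ratios fell as the small RNA share of the sample rose. That share was 56.1%, 57.1% and 61.9% in WT replicates 1, 2 and 3, 62.3% in KO replicate 2 and 73.2% in KO replicate 1. The part of library composition in these ratios was not tested. Prdm14 stood at 0.683%, 0.614% and 0.573% in WT and 0.810% and 0.911% in KO, above every WT sample, with a difference of 0.47.

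The remaining 6 ratios overlapped between the groups, with log2 differences from -0.11 (Tbx3) to 0.12 (Nanog). The share of all genes without overlap, as a ratio or on either scale, was not counted. A lack of overlap is therefore not read as particular to these factors. Sox2 was 25.6%, 22.6% and 16.6% of Pou5f1 in WT and 18.8% and 25.9% in KO. WT replicate 3 had the lowest ratio of the 3 WT samples for all 9 factors, and of the 6 overlapping ratios, those of Sox2, Nanog, Esrrb, Klf2 and Tbx3 were lower there than in both KO samples. With 3 samples against 2, the smallest two-sided p of an exact permutation test is 0.1, so that test could not reach 0.05 for a single ratio, and the ratios are given without a test.

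**Figure D3:**
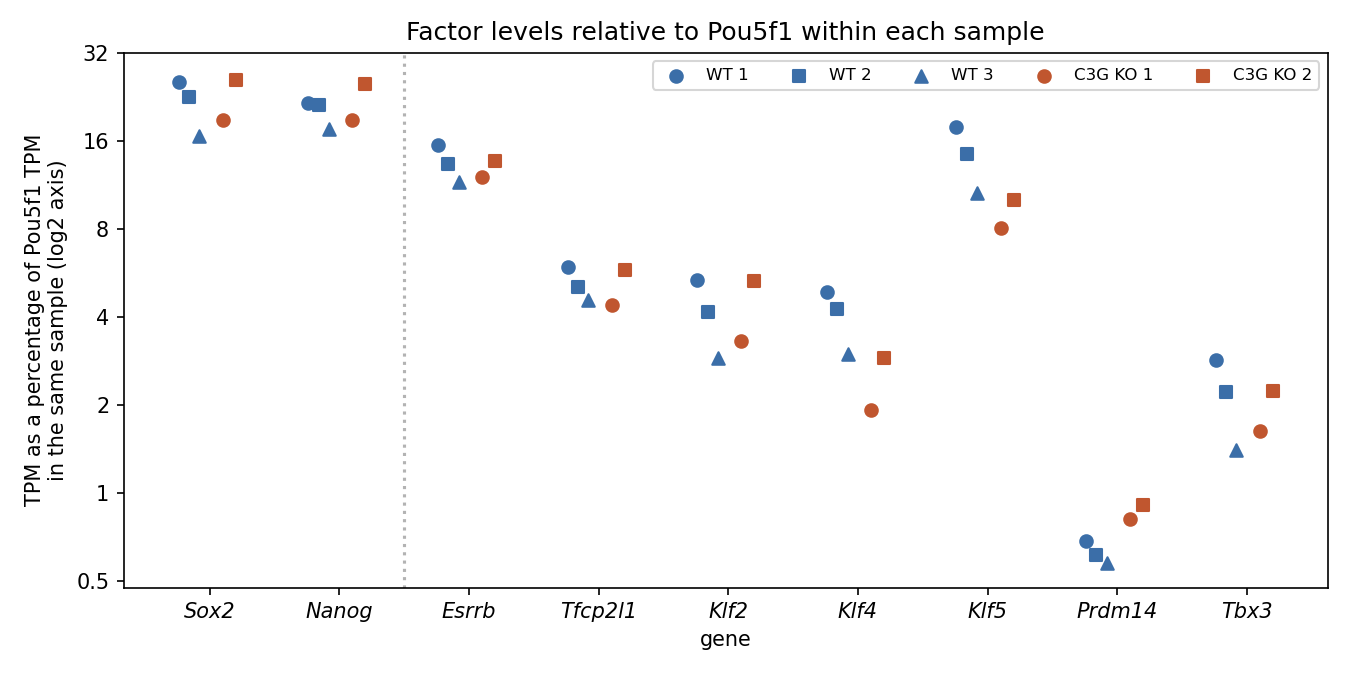
TPM of each factor as a percentage of Pou5f1 TPM in the same sample, on a log2 axis. Points are samples (blue WT, orange C3G KO); both KO samples lie below every WT sample for Klf4 and Klf5 and above for Prdm14, and the other 6 factors overlap.

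The core factors were compared with the naive factors by the difference of their mean log2(scaled TPM + 1) in each sample. The difference was 2.77, 2.95 and 3.08 in WT and 3.21 and 3.11 in KO, or 2.93 ± 0.16 (SD, n = 3) and 3.16 ± 0.07 (SD, n = 2). Both KO samples were above WT, KO replicate 2 by a narrow margin, and the means differed by 0.23 on the log2 scale. Over WT and KO samples together, the difference rose in the order of the small RNA shares given above. The part of library composition in it was not tested. With Klf4 and Klf5 left out of the naive set, a choice made after their values were seen, the means were 3.24 ± 0.14 in WT and 3.27 ± 0.05 in KO and the groups overlapped. They also overlapped without a pseudocount (3.24 in WT replicate 3 and in KO replicate 2) and with the length and GC correction, where the means differed by 0.081. With quantile normalization the means differed by -0.016. No test was made of this score because the members were chosen with results known.

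The expression of each factor was carried by few annotated transcripts. Pou5f1-201 held 98.7% to 99.2% of Pou5f1 TPM in every sample and Nanog-201 held 99.1% to 100%. Sox2, Klf2 and Prdm14 had 1 annotated transcript each. Klf4-201 held 91.2% to 100% of Klf4, and Klf5 was divided between Klf5-201 (87.0% to 90.4%) and Klf5-202 (9.61% to 13.03%) in like shares in both groups. Shares of transcripts are estimates, since reads shared by isoforms are divided by the quantification.

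Transcripts of Esrrb begin at separate places and differ in level. Esrrb-203, which starts at chr12:86421644, had deposited TPM of 36.3, 31.9 and 32.4 in WT and 18.56 and 28.8 in KO. It held 64.3% to 70.5% of Esrrb TPM, and Esrrb-206 held 21.8% to 25.1%. Esrrb-204, which starts upstream at chr12:86361117, had deposited TPM of 1.81, 2.74 and 0.39 in WT and 0.74 and 1.19 in KO. This was 0.845% to 5.52% of Esrrb TPM, and both KO samples lay within the WT range.

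**Figure D4:**
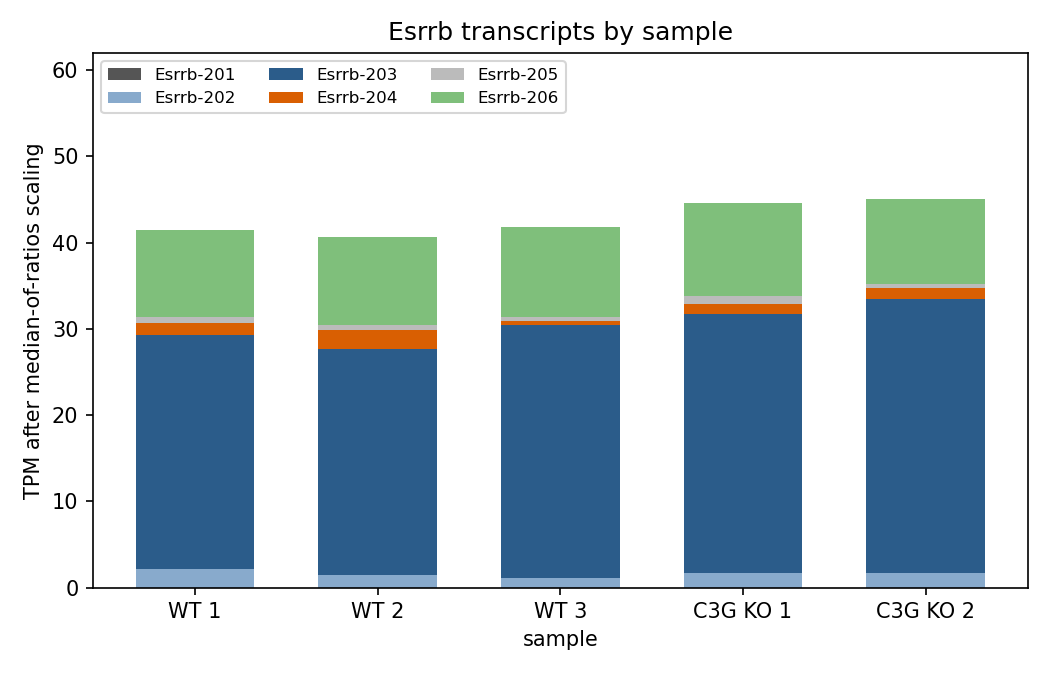
Scaled TPM of the 6 annotated Esrrb transcripts, stacked, in each sample. Esrrb-203 and Esrrb-206 make up most of every bar, Esrrb-204 (orange) is at most 2.25 scaled TPM, and Esrrb-201 is listed at 0.

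The 250 bases before both Esrrb starts are printed because their transcripts differ in level by over an order of magnitude and the study's Esrrb primers, given further on, lie at only one of them, and those before the Klf4 start because Klf4 is a factor called lower. They are RefSeq starts on GRCm38.p6, written 5′ to 3′ on the strand of the gene. RefSeq entries were matched for 7 of the 10 factors, with 10 starts in all, and the others, Klf5, Prdm14 and Tbx3, had no entry. Capitals mark matches on either strand to TTCNNNGAA (the STAT-type site), GGGCGG (the GC box) and CACCC (the CACCC box, which Krüppel-like factors are known to bind), and overlapping GC boxes run together.
Esrrb, start of Esrrb-204 (chr12:86360867-86361116): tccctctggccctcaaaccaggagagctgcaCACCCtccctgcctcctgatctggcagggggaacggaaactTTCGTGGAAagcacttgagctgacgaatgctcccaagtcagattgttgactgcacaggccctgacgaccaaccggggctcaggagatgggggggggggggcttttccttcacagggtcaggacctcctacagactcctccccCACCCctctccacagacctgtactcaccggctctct
Esrrb, start of Esrrb-202 and Esrrb-203 (chr12:86421394-86421643): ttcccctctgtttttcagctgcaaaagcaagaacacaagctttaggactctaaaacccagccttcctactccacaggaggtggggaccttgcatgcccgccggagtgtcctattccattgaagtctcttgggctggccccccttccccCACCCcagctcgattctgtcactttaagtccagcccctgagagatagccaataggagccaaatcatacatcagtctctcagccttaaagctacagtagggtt
Klf4, minus strand (chr4:55532476-55532725): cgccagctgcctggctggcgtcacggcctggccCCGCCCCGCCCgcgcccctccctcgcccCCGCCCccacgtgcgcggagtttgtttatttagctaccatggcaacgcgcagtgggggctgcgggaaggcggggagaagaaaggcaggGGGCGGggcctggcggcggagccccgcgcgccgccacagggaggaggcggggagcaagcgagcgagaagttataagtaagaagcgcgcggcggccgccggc

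The window before Esrrb-204 held 1 STAT-type match and 2 CACCC matches, and the window before Esrrb-203 held 1 CACCC match. The Klf4 window held 4 GC box matches and had a GC content of 74.0%. Of the 10 member starts, 1 held a STAT-type match, 4 a GC box and 5 a CACCC box. Over 32851 RefSeq promoters of the same length the shares were 7.02%, 32.7% and 52.0%. The octamer ATGCAAAT, the half-site AAGGTCA and the TATA box TATAAA were searched too and were found in 0, 0 and 1 of the 10 starts, against 1.6%, 4.08% and 12.4% of all promoters. A match is a string of letters and not a bound site.

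The study's qPCR primers for 5 of the factors are given because they show which transcripts a PCR product of each gene would measure. They were placed on the annotated transcripts, where both primers had to match in full, and no other gene held a product of any pair.
Pou5f1 primer 1: gtggaggaagccgacaacaatga
Pou5f1 primer 2: caagctgattggcgatgtgag
Nanog primer 1: tggtccccacagtttgcctagttc
Nanog primer 2: caggtcttcagaggaagggcga
Klf4 primer 1: gtgcagcttgcagcagtaac
Klf4 primer 2: agcgagttggaaaggataaagtc
Esrrb primer 1: tcttcccagctcccacagta
Esrrb primer 2: ccccatgcaagcttcgtagt
Sox2 primer 1: ttttctagtcggcatcacCg
Sox2 primer 2: acaagAgaattgggaggggt

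The study reported Klf4 and Esrrb higher in its null cells by qPCR and as protein, and Nanog lower by both. For Klf4 the direction was opposite in the sequencing values on both scales. Nanog had log2 fold changes of 0.29 after scaling and -0.39 as deposited, and Esrrb of 0.12 and -0.57. Their direction against the study thus depended on the scaling, and neither passed on either scale. From its own sequencing, the study stated that transcripts of many pluripotency genes were not significantly changed. The reason for the differences was not tested. The Pou5f1 pair gave a product of 181 bases in the coding sequence of all 6 annotated transcripts. The Klf4 pair gave 100 bases in the coding sequence of all 3, and the Nanog pair 163 bases in Nanog-201, which held at least 99.1% of Nanog TPM in every sample. The Esrrb pair matched only Esrrb-204, 1 of 6 transcripts, with a product of 106 bases in its 5′ UTR (chr12:86361154-86361259, exon 1). It thus lies in the upstream start region, which carried 3.27%, 5.52% and 0.845% of Esrrb TPM in WT and 2.68% and 2.91% in KO. The Sox2 pair had no full match in Sox2-201. Each Sox2 primer matched it with 1 mismatch, C19G in primer 1 and A6G in primer 2, counted from 1 at the 5′ end of the primer with the primer's base first, marked by the capital above, and the product of 154 bases lay in the 3′ UTR.

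Around the 10 factors, 30 other regulators of the network, a list written with earlier results of these data known, were all tested. After scaling 3 were higher, 3 were lower and 24 did not pass, with a median log2 fold change of -0.0147, so the shares were under the background of all genes. As deposited 0 were higher and 22 lower, where 1.45% of all genes were higher and 56.8% lower. Rest, a repressor of neuronal genes, had scaled TPM of 37.7, 38.1 and 37.8 in WT and 46.6 and 55.0 in KO, a log2 fold change of 0.41 (limma adjusted p = 0.0174). Zfp143, a zinc finger activator, had a log2 fold change of 0.34 (limma adjusted p = 0.00996). Gbx2, a homeodomain factor and STAT3 target, fell by 0.78 on the log2 scale, from 5.07, 5.07 and 4.61 to 2.21 and 2.70 scaled TPM (limma adjusted p = 0.00188). Myc, which promotes growth and is another STAT3 target, fell by 0.48, from 11.3, 11.4 and 10.2 to 6.53 and 8.68 scaled TPM (limma adjusted p = 0.0264). The counts depended on single samples: without WT replicate 2 they were 0 higher and 1 lower, without KO replicate 2 they were 1 and 4, and without WT replicate 1 or KO replicate 1 they were 2 and 1. With the length and GC correction 8 were higher and 2 lower.

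LIF acts through its receptor, made of Lifr and Il6st (gp130), and the kinase Jak1 on Stat3, with Socs3 as a feedback inhibitor. Of 8 genes of this input, 1 was higher, 3 were lower and 4 did not pass after scaling, with a median log2 fold change of -0.204, and as deposited 7 were lower. Over all genes 14.1% were higher and 16.6% lower after scaling, and 56.8% lower as deposited. Lifr had scaled TPM of 12.9, 12.0 and 11.3 in WT and 14.9997 and 18.1 in KO, a log2 fold change of 0.43 (limma adjusted p = 0.0234). Jak1 had 8.02, 7.65 and 7.46 in WT and 4.83 and 4.83 in KO and fell by 0.58 on the log2 scale (limma adjusted p = 0.00166). Lif itself fell by 0.53, from 1.43, 1.59 and 1.62 to 0.857 and 0.673 scaled TPM (limma adjusted p = 0.00686), in cultures that received LIF in the medium. Socs3 fell by 0.21 (limma adjusted p = 0.0485), and with the length and GC correction its log2 fold change was -0.0075. Stat3 (-0.07), Il6st (-0.09), Pim1 (-0.20) and the phosphatase gene Ptpn11 (-0.24) did not pass. By western blot the study reported more phosphorylated STAT3 in its null cells. RNA levels of these inputs, or of targets such as Gbx2 and Myc, do not measure that phosphorylation.

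Relatives of the factors were followed through a list of 38 paralogs, of which 27 were tested. After scaling 3 were higher, 8 were lower and 16 did not pass, with a median log2 fold change of -0.0216, and as deposited 17 were lower, beside 14.1% higher and 16.6% lower after scaling and 56.8% lower as deposited over all genes. Among 11 tested Krüppel-like genes outside the set, 3 were lower (Klf6, Klf7 and Klf16) and 1 was higher (Klf8). By mean deposited TPM in WT, Klf6 (28.5) and Klf9 (27.4) were the most abundant of them, and their WT ranges overlapped. Klf6 had scaled TPM of 22.6, 22.2 and 25.6 in WT and 13.2 and 12.1 in KO. It fell by 0.84 on the log2 scale (limma adjusted p = 0.00149). Klf9, Klf3 and Klf10, the others with a mean of at least 10 TPM in either group, did not pass, at -0.11, -0.18 and 0.19.

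All 3 tested Sox relatives were lower (Sox11, Sox15 and Sox21), where 16.6% of all genes were. Sox21 lies on chromosome 14, where 56.7% of genes were lower, and the part of the chromosome was not tested. It was also near the filter, at 1.18 to 1.86 deposited TPM in WT and 0.27 and 0.40 in KO. With the length and GC correction Sox11 did not pass, at -0.27 (limma adjusted p = 0.0554). Sox15, which is known to be expressed beside Sox2 in ES cells, had scaled TPM of 8.58, 8.27 and 8.89 in WT and 6.09 and 5.42 in KO, a log2 fold change of -0.51 (limma adjusted p = 0.00444), while Sox2 had 0.23. Prdm4 (0.15), Pou2f1 (-0.01) and Ubp1 (-0.11) did not pass.

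Summed markers of other states differed in level between the groups, beside the factors. The 9 primed-state markers summed to 56.3 to 60.1 scaled TPM in WT and to 88.1 and 97.4 in KO. Of 6 tested, 4 were higher after scaling (Otx2, Dnmt3b, Lef1 and Zic2), where 14.1% of all genes were. As deposited 1 was higher, and the median log2 fold change was 0.0656. Fgf5 (0.31) and Pou3f1 (0.02) did not pass after scaling. Dnmt3b, Lef1 and Zic2 are also expressed in ES cells, so their rise does not mark the primed state alone. Dnmt3b by itself held 35.3 to 36.4 scaled TPM in WT and 44.9 and 53.5 in KO. Endoderm markers (7, of which 1 was tested and higher) summed to 3.90 to 4.07 in WT and 6.95 and 9.37 in KO, and 5 neural markers to 19.3 to 20.9 in WT and 25.9 and 27.7 in KO. Of the 3 neural markers tested, 1 was higher (Tubb3, a neuronal tubulin, at 9.30, 9.88 and 12.1 in WT and 22.3 and 19.3 in KO) and 1 was lower. The lower one was Nes, an intermediate filament gene of neural progenitors, at 7.52, 7.13 and 6.90 in WT and 2.10 and 2.64 in KO, and both were named after their values were seen. Mesoderm markers (5) summed to 5.54 to 6.91 in WT and 2.76 and 3.89 in KO. Of 2 tested, T was lower (-1.15) and Eomes did not pass (0.02), where 16.6% of all genes were lower. By qPCR the study reported T (Brachyury), Eomes, Sox17, Gata6 and Otx2 repressed in its null cells. Here Otx2 was higher after scaling. Sox17 and Gata6 did not pass the filter and lay above every WT sample in both KO samples on both scales. The reason for these differences was not tested. Trophectoderm markers (5, of which 2 were tested and lower) summed to 4.94 to 5.27 in WT and 0.718 and 1.05 in KO. Fibroblast markers (6, of which 2 were tested and lower) summed to 2.70 to 3.17 in WT and 0.501 and 0.861 in KO. Foxa2 stands in both the primed and the endoderm list. No marker was listed at 0 in all samples. The 3 core factors summed to 394 to 486 scaled TPM in WT and 497 and 511 in KO, well above each of these lists. The part of other cell states in the values of the 10 factors was not tested.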

How the data were processed

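RNA sequencing of 3 WT and 2 C3G-KO samples was re-analysed from 1 table. Per the labels, the authors used bcl2fastq 2.20, FastQC 0.11.7, STAR 2.5.1b and RSEM 1.2.31 with the mm10/GRCm38 build, and the deposited values are TPM of 142647 Ensembl transcripts, rounded to 2 decimals. TPM hold no counts, so depth is unknown and no count test was possible, and precision is limited by the few samples. GENCODE M21 (GRCm38) matched 141524 of the transcripts, which were summed by symbol, and 1123 had no match.

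Genes reaching 1 TPM in 2 or more samples were tested with limma 3.58.1 (R 4.3.3), on log2(TPM + 1), allowing a trend of variance with level, two-sided, with Benjamini-Hochberg adjustment over all tested genes at 0.05. The main scale was median-of-ratios scaled TPM, and TPM as deposited was fitted the same way. Prior degrees of freedom were 3.11 after scaling and infinite as deposited, so each gene's own spread has no part in p-values as deposited. A fold change on this scale understates that of low genes. For the length and GC correction, a loess trend (span 0.5) was removed per sample. The fit was also run on simulated data with independent noise. Those data held no trend with length or GC content and no shift of a chromosome or of small RNAs, so they cannot show how the fit handles these. Figures were made with matplotlib 3.10.9 in Python 3.11.15. Promoter and primer sequences were searched by exact letters.

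The members, gene lists, tests and alternatives were chosen with earlier results of these data known. Genes named are the 10 factors, Rapgef1, the 2 largest rises and falls among 30 network regulators, the LIF inputs, and paralogs with a mean of at least 10 TPM in either group. The result of 1 named paralog is not reported here. Others among counts of 5 or fewer were named after their values were seen, and Sox17 and Gata6 because the study reported them by qPCR. The alternatives were other pseudocounts (0.1 and 5), filters, normalizations and transcript sets, limma without the trend, leaving out chromosome 14 genes or 1 sample, a replicate block and the length and GC correction. Limma without the trend on TPM as deposited and the changed core and naive scores were added after seeing the data.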

Additional observations from a re-analysis of the deposited data

How the results depend on the processing

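Klf4 and Klf5 were lower in KO cells under all 19 alternatives, but their calls were lost in 6 and 4 of them, with log2 fold changes from -1.13 to -0.33 and from -1.13 to -0.38. The count of factors called lower was 0 without a filter on low values and 1 with the length and GC correction, and ran from 0 to 2 when 1 sample was left out. With a KO sample left out, the lone KO sample was assumed to vary like the WT samples. The count of factors called higher was 0 with TPM as deposited, with or without the trend, 0 with a filter of 5 TPM, which removes Prdm14, 2 with protein-coding transcripts only (Prdm14 and Nanog) and 3 with the length and GC correction (Prdm14, Esrrb and Tfcp2l1), and it was 1 whichever sample was left out.

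The sign of every factor other than Klf4 and Klf5, the called Prdm14 among them, depended on the scaling. With TPM as deposited, with or without the trend, log2 fold changes were -0.52 for Pou5f1, -0.46 for Sox2, -0.39 for Nanog, -0.57 for Esrrb, -0.52 for Tfcp2l1, -0.41 for Klf2, -0.032 for Prdm14 and -0.54 for Tbx3. With protein-coding TPM rescaled to a common total they were -0.044 for Pou5f1, -0.10 for Esrrb, -0.073 for Tfcp2l1 and -0.15 for Tbx3, and with quantile normalization -0.30 for Pou5f1 and -0.025 for Esrrb. The cause was not tested. With 1 sample left out, Klf2 ran from -0.0054 to 0.48 and Tbx3 from -0.091 to 0.18.

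The 30 network regulators gave 0 higher and 22 lower as deposited (17 lower without the trend), 1 and 7 with quantile normalization, 0 and 13 with protein-coding TPM, 1 and 1 without a filter, 3 and 5 with a filter of 5 TPM, 8 higher with the length and GC correction, and 0 to 2 higher and 1 to 4 lower with 1 sample left out. The core minus naive difference was -0.016 with quantile normalization, 0.081 with the length and GC correction and 0.035 without Klf4 and Klf5, and ran from 0.15 to 0.30 with 1 sample left out. Over all genes, 181 were higher and 7109 lower as deposited, against 1760 and 2083 after scaling, so 2.48% and 45.8% of calls were higher.

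Replicate numbers 1 and 2 are shared by the groups, but with 2 KO samples their deviations from the group mean are opposite by construction (correlations with the same-numbered WT samples of -0.18 and 0.181), so the numbers were not taken to pair the samples. With the replicate block, 1 factor was higher and 2 were lower, over all genes 1489 were higher and 1816 lower, and Tbx3 had a log2 fold change of -0.090. With the replicate block and the length and GC correction together, 3 factors were higher and 1 lower, 6 network regulators were higher and 1 lower, and the core minus naive difference was 0.081.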
